A study of Caenorhabditis elegans with 4 samples.

Results

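The peaks described here are the TBP-1 binding sites called on the left part of the X chromosome, its first 5.9 Mb, in Caenorhabditis elegans embryos. They were taken by position alone, as every peak of the whole-series list on X whose centre lay between base 1 and base 5900000 of the WormBase WS220 build. This gave 292 peaks, of 942 on X and 4214 in all, of which 4203 were nuclear. The embryos were wild-type N2, the standard laboratory strain, of mixed stages and of both sexes per the labels, and were kept at 20 °C. Chromatin was immunoprecipitated with SDQ0839, an affinity-purified rabbit polyclonal antibody against TBP-1, in 2 ChIP samples, and 2 more samples were input DNA. There was 1 peak list for each ChIP replicate and 1 for the whole series, and peak lists of the input samples were not analysed here. The whole-series list names no sample and was taken as pooled from the ChIP samples. It is thus not a further replicate, and its overlap with the replicate lists is not independent support. Whether the replicates are separate cultures is not in the labels, and their spread may be technical only. The depth behind the lists is unknown, since they hold no read counts.

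TBP-1 is the TATA-binding protein of the worm. Within larger complexes this saddle-shaped factor sits on core promoters and helps to position RNA polymerases I, II and III at start sites, so its ChIP peaks are used to locate promoters and other short transcribed units such as tRNA genes. The X chromosome has its own mode of gene control in this species. A condensin-like dosage compensation complex loads at recruitment sites along the X chromosomes of hermaphrodites, spreads to promoters and lowers transcription, whereas the single X of males is left uncompensated. Peaks could not be placed at genes or promoters here, because the gene table at hand belongs to another build, and no sequence of the peaks is shown for the same reason.

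The left part of X carried more TBP-1 peaks per Mb than the autosomes and fewer than the rest of X in all 3 lists, although in replicate 1 the first of these rested on a single window of 500 kb, without which the left part fell to 15.2 peaks per Mb. Replicate 1 had 109 peaks there, a density of 18.5 per Mb (95% Poisson interval 15.2 to 22.3), against 22.7 on the rest of X (20.0 to 25.6) and 15.8 on the autosomes (15.0 to 16.7). Replicate 2 had 195 peaks, or 33.1 per Mb (28.6 to 38.0), against 36.6 (33.2 to 40.2) and 24.6 (23.6 to 25.7). The whole-series list had 49.5 per Mb (44.0 to 55.5), against 55.0 (50.8 to 59.4) and 39.5 (38.2 to 40.9). In every list the interval of the left part overlapped that of the rest of X. It overlapped that of the autosomes in replicate 1 and lay above it in the other lists. All intervals here cover the counting of peaks only.

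As a ratio, the density of the left part was 0.86 ± 0.063 times that of the rest of X (SD, n = 2) and 1.25 ± 0.12 times that of the autosomes. The replicates were 0.81 and 0.90 for the first ratio, and 1.17 and 1.34 for the second. A two-sided exact permutation test over the 2 replicates gave p = 0.5 for either log2 ratio, the smallest value that 2 samples allow, so neither difference could pass a threshold of 0.05. Differences between the left part and other regions are therefore given below as descriptions, and none is called particular to it.

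Within X, the right end was the fullest. From left to right, the 3 parts of X, bounded at 5.9 and 11.8 Mb, held 49.5, 45.9 and 64.0 whole-series peaks per Mb. They held 18.5, 20.7 and 24.7 in replicate 1, and 33.1, 32.4 and 40.7 in replicate 2. The right part was thus above the others in each list, but its interval stood clear of theirs only in the whole-series list (57.7 to 70.8). In replicate 1 (20.8 to 29.0) and replicate 2 (35.7 to 46.2) it overlapped those of the left and middle parts. The left and middle parts changed places between replicates and their intervals overlapped. With each of the other nuclear chromosomes also cut into 3 parts of equal length, the left part of X ranked 2 of 18 in density in the whole-series list and in replicate 2, and 7 of 18 in replicate 1. It made up 33.3% of the length of X and held 31.0% of its whole-series peaks (95% Clopper-Pearson interval 28.1 to 34.1) and 30.0% ± 1.5 of its replicate peaks (SD, n = 2).

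**Figure D1:**
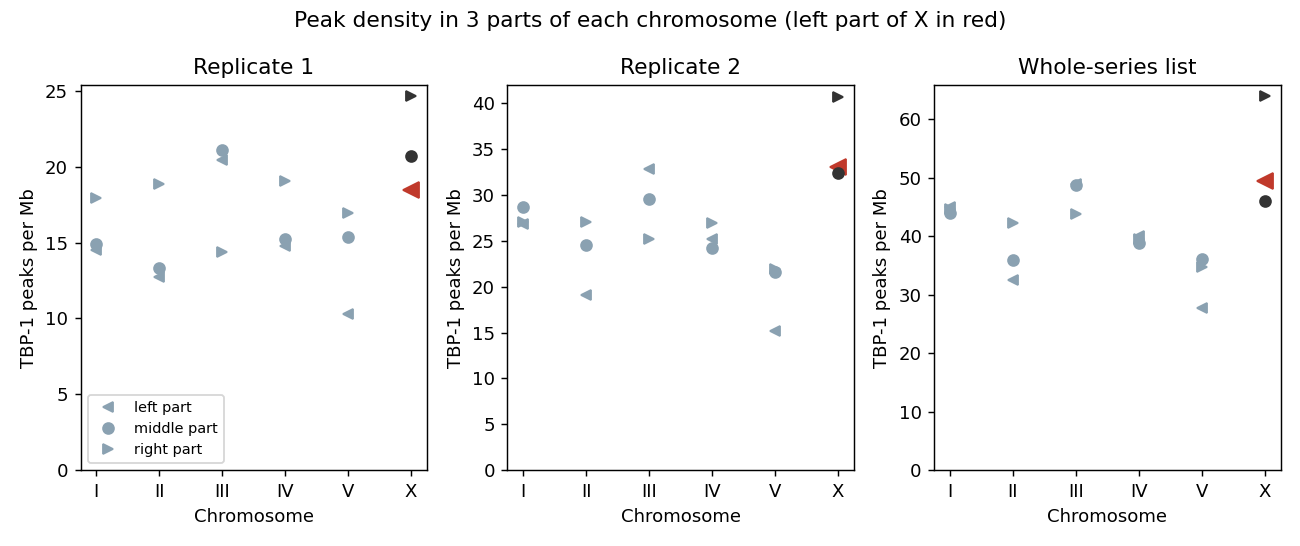
TBP-1 peaks per Mb in the left, middle and right part of each nuclear chromosome, 1 panel per list, with the left part of X in red, its other parts in black and autosomal parts in grey. The left part of X sits at 18.5, 33.1 and 49.5 peaks per Mb, below the right part of X in each panel.

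Covered length gave a similar picture. Whole-series peaks covered 1.92% of the left part, 2.08% of the rest of X and 1.48% of the autosomes. The shares were 1.31%, 1.42% and 1.06% in replicate 1, and 3.39%, 3.77% and 2.52% in replicate 2.

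Whole-series peaks were spread unevenly along the left part, but the replicates differed in this. Each whole 500-kb window held 13 to 43 whole-series peaks, with a median of 27. The variance of the counts was 3.11 times their mean, against 2.92 on the rest of X and 2.25 on the autosomes. In the left part this ratio was 4.34 in replicate 1 and only 1.19 in replicate 2. In whole-series windows of 100 kb the order of the regions changed, with 1.73 in the left part, 2.47 on the rest of X and 1.86 on the autosomes. The fullest window lay from 1.5 to 2.0 Mb and held 43 whole-series peaks, 27 of replicate 1 and 24 of replicate 2. Of the 197 whole 500-kb windows of the genome, this one ranked 1 in replicate 1, tied with another window, 5 in replicate 2 and 4 in the whole-series list. It was also the only window of the 12 in the left part, the last of which is 400 kb long, where the replicate 1 count exceeded that of replicate 2. Over the genome, 12 of 197 windows had more peaks in replicate 1.

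The 1.5 to 2.0 Mb window weighed differently on the 2 replicates. It held 24.8% of the peaks of the left part of replicate 1 and 12.3% of those of replicate 2. Without it, a setting chosen after seeing the data, replicate 1 had 15.2 peaks per Mb in the left part and a density ratio of 0.67 to the rest of X, and replicate 2 had 31.7 and 0.87. Against the autosomes the ratio was then 0.96 in replicate 1, so its direction turned, 1.29 in replicate 2 and 1.17 in the whole-series list. Of the members in the window 23 of 43 (53.5%) were in both replicates, and of the others 74 of 249 (29.7%), beside 34.5% over all nuclear peaks. The window was singled out for its high counts, that of replicate 1 included. A member can be in both only where replicate 1 has a peak, so the higher share is not independent of that choice. The replicate 1 peaks of this window were not the strongest, with a median score percentile of 50.0 within their list and a median width of 419 bp, against 56.3 and 568.5 bp for the other replicate 1 peaks of the left part. The replicate 2 peaks of the window had a median percentile of 64.4, against 49.9 for the others.

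At a finer scale, the 3 fullest 100-kb windows held 13 (X 1600001 to 1700000), 11 (X 1500001 to 1600000) and 10 members (X 100001 to 200000). The first had 9 replicate 1 and 6 replicate 2 peaks, the second 4 and 6, and the last 2 and 6. Of its 59 windows of 100 kb, 1 was empty in the whole-series list, 14 in replicate 1 and 4 in replicate 2.

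**Figure D2:**
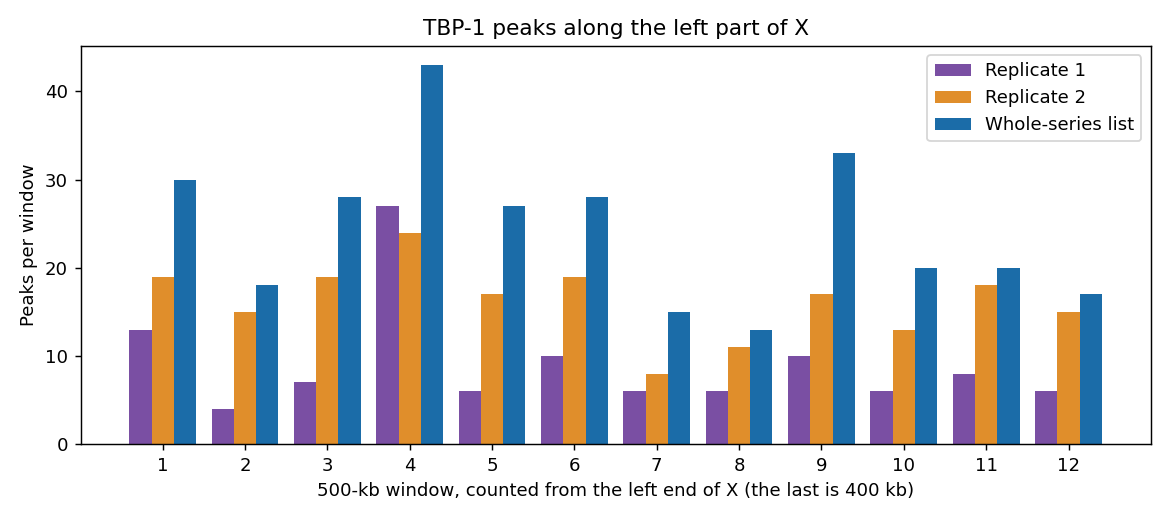
Number of TBP-1 peaks in successive 500-kb windows counted from the left end of X, with bars for replicate 1, replicate 2 and the whole-series list. The window counted as 4, from 1.5 to 2.0 Mb, holds 27, 24 and 43 peaks, and the windows counted as 7 and 8 hold 15 and 13 whole-series peaks.

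The stretch from 3.0 to 4.0 Mb held the emptiest 500-kb windows of the left part in the whole-series list. Over the genome its emptier window, from 3.5 to 4.0 Mb, ranked only 21 from the lowest of 197, tied with others. In replicate 1 it ranked 56, and the emptiest window of the left part lay from 0.5 to 1.0 Mb. The stretch held 28 members. Of these, 7 (25%) belonged to the strongest 10% of the whole-series list by score, against 26 of 264 (9.85%) in the remainder of the left part and 9.99% over all nuclear peaks. The stretch was singled out for its few peaks, and per Mb its 7 strong peaks were close to the 7.28 of the rest of X, while the first 0.5 Mb of X alone held 6. The median score percentile was 28.5 from 3.0 to 3.5 Mb, the lowest of the 12 windows, and 55.2 from 3.5 to 4.0 Mb. Both of the 2 longest stretches without a member lay here. The longest ran for 125945 bp from X 3414999 to 3540943, and held no replicate 1 peak and 2 weak replicate 2 peaks of score 91.81 or less. The next, of 120406 bp, ran from X 3793768 to 3914173 and held no replicate peak of its own. The one after that, of 110011 bp from X 5165253 to 5275263, was also empty in both replicates.

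In strength, the members ranked close to the middle of the list. The authors' score has no stated scale, so only its rank inside a list was used. The median percentile of the members was 50.3 (binomial interval 44.9 to 55.2), against 52.0 on the rest of X (47.4 to 57.0) and 49.6 on the autosomes (48.1 to 51.3). In replicate 1 the medians were 53.2, 54.7 and 48.8, and in replicate 2 they were 53.2, 56.5 and 48.3. The left part thus lay between the other regions in each list.

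Of the members, 33 (11.3%, 7.91 to 15.5) were among the strongest 10%, beside 9.99% over all nuclear peaks. The rest of X had 13.2% (10.7 to 16.1), and the autosomes 9.23% (8.26 to 10.3). Among the strongest 10% of each replicate list, peaks of the left part made up 19 of 168 in replicate 1 and 21 of 266 in replicate 2. These were 17.4% (10.8 to 25.9) of the replicate 1 peaks there and 10.8% (6.79 to 15.99) of those of replicate 2. The corresponding shares on the rest of X were 14.2% and 12.3%, so the order of the 2 regions differed between replicates.

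The gap between the left part and the rest of X varied with peak strength, in a way that differed between replicates. In the strongest 25% of the whole-series list, the left part had 12.2 peaks per Mb (9.55 to 15.4) and the rest of X 16.4 (14.2 to 18.9), a ratio of 0.74. In the 3 classes of 25% below it, from stronger to weaker, the ratios were 1.07, 0.99 and 0.86. In replicate 2 the ratio was also lowest in the strongest 25% of its own list, at 0.74, and was 0.97, 0.93 and 1.02 below it. In replicate 1 it was 0.89 in the strongest 25% and 1.00 in the strongest 10%, and the lowest ratios, 0.73 and 0.71, were in the 2 middle classes. Relative to the autosomes the left part was denser in all 4 classes, with ratios of 1.28, 1.26, 1.32 and 1.15 in the same order.

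The 33 strong members were 376 to 1131 bp wide, with a median of 593 bp. All 33 overlapped peaks of both replicates, as did all 420 of the strongest 10% over the genome. Neighbours among them were a median of 132 kb apart, from 0.812 kb to 890 kb. The widest interval between them, of 890 kb, ended at the member X 1379396 to 1379857.

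The 12 strongest members found in both replicates stood at percentile 97.3 of the whole-series list or above. At the top was X 1880658 to 1881138, 481 bp wide, whose whole-series score of 246.25 is the highest of the list and was shared by 7 peaks. Its overlapping peaks scored 2632.02 in replicate 1 and 3054.73 in replicate 2. It belonged to a group of 3 of these members whose centres spanned 43.0 kb, with X 1858491 to 1859107 (239.81) and X 1837571 to 1838163 (238.75). The replicate scores of these were 2753.76 and 3100 for the first, and 2593.68 and 2023.63 for the second.

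Next in rank were X 352868 to 353591 with a whole-series score of 246.22, X 489488 to 490232 with 245.17 and X 5085208 to 5086004 with 242.88. The last of these had the score 3100 in both replicates, a value shared by many peaks at the top of those lists. Then came X 2226755 to 2227525 (233.05), X 3697317 to 3698017 (232.95), X 1379396 to 1379857 (231.77), X 3035540 to 3036577 (226.26), X 2553310 to 2554001 (225.34) and X 3994328 to 3994816 (221.25). Replicate ranks differed most for X 2226755 to 2227525, at percentile 83.8 of replicate 1 and 92.8 of replicate 2. The lowest of the 12 were at percentile 82.8 of replicate 1 and 87.4 of replicate 2.

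Members were found in both replicates about as often as all peaks were. Of the 292, 97 overlapped peaks of both replicates by at least 1 bp (33.2%, 27.8 to 38.9), against 37.8% on the rest of X (34.1 to 41.7), 33.9% on the autosomes (32.3 to 35.5) and 34.5% over all nuclear peaks. A further 102 (34.9%, 29.5 to 40.7) overlapped only replicate 2, beside 31.3% over all peaks, and 13 (4.45%, 2.39 to 7.49) only replicate 1, beside 5.21%. The remaining 80 (27.4%, 22.4 to 32.9) were in neither, beside 29.0%. The intervals of the left part contained the value of all peaks in each class.

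Per Mb, members found in both replicates were 16.4 (13.3 to 20.1), against 20.8 (18.3 to 23.6) on the rest of X and 13.4 (12.6 to 14.2) on the autosomes. Members found in neither were 13.6 per Mb (10.8 to 16.9), against 13.8 (11.8 to 16.1) and 11.8 (11.1 to 12.6). The ratio of the left part to the rest of X was thus 0.79 for peaks in both replicates and 0.98 for peaks in neither.

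Overlap with both replicates followed the score, and at like score the regions were close in this share. In the weakest 25% of the whole-series list 0 of 68 members were in both replicates (exact upper bound 5.28%), in the class above it 1 of 77, in the one above that 26 of 75 (34.7%, 24.0 to 46.5) and in the strongest 70 of 72 (97.2%, 90.3 to 99.7). On the rest of X the shares in the same order were 0.629%, 1.92%, 36.2% and 98.5%. On the autosomes they were 2.43%, 5.63%, 32.8% and 97.5%. The share found in neither replicate varied more in the weakest 25%. It was 66.2% of the members there (53.7 to 77.2), 56.6% on the rest of X (48.5 to 64.4) and 63.0% on the autosomes (59.6 to 66.3). In the middle part of X it was 44.8% (32.6 to 57.4). The strongest 25% of the list made up 24.7% of the members (19.8 to 30.0) and 29.8% of the peaks on the rest of X (26.3 to 33.5).

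**Figure D3:**
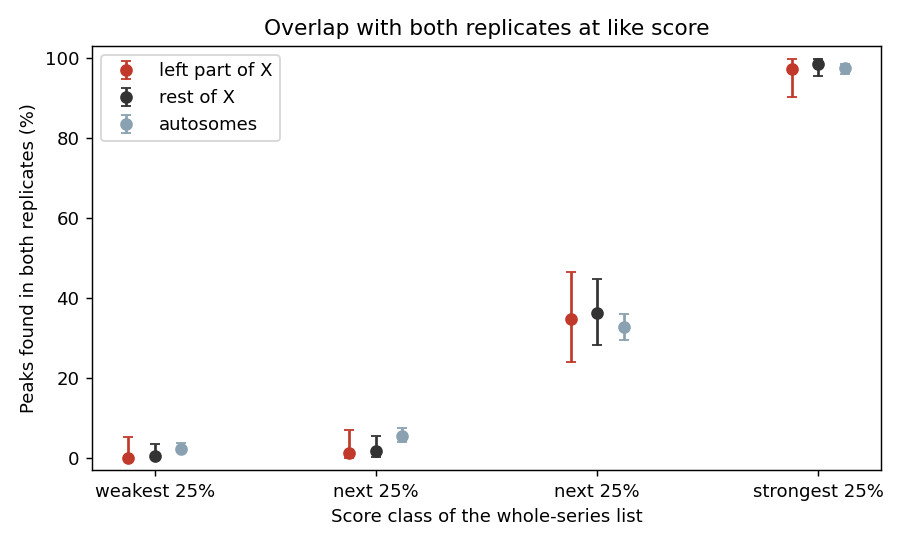
Share of whole-series peaks found in both replicates, in 4 score classes of 25% of the list each, for the left part of X, the rest of X and the autosomes, with 95% Clopper-Pearson intervals as bars. In the left part the share goes from 0 of 68 in the weakest class to 70 of 72 in the strongest, and the 3 regions lie close together in each class.

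The 2 members of the strongest class that lacked a replicate 1 peak were X 1446757 to 1447115 and X 4453058 to 4453358, named here after their values were seen. Their whole-series scores were 46.45 and 46.17, and their replicate 2 scores 512.15 and 302.49. The 5 strongest members found in neither replicate were much weaker. They were X 1626988 to 1627197 (14.15), X 3099890 to 3100100 (13.92), X 5591865 to 5592056 (12.92), X 654428 to 654605 (11.91) and X 5285424 to 5285640 (11.83), and were 178 to 217 bp wide. The first of them lay in the fullest 100-kb window.

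Seen from the replicates, 96 of the 109 replicate 1 peaks of the left part overlapped a replicate 2 peak (88.1%, 80.5 to 93.5), beside 85.2% over the genome and 90.3% on the rest of X. Of the 195 replicate 2 peaks, 90 overlapped a replicate 1 peak (46.2%, 39.0 to 53.4), beside 49.6% and 50.9%. The whole-series list contained 105 of the 109 (96.3%, beside 95.3% over the genome) and 183 of the 195 (93.8%, beside 93.7%). Across the 90 shared replicate 2 peaks, Spearman's rho between the scores of the replicates was 0.88, and 0.81 over the 73 pairs below the tied score of 3100. On the rest of X it was 0.91 over 220 pairs, and on the autosomes 0.85 over 1009. These relations are across peaks of the same 2 libraries and carry no p.

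Replicate peaks of the left part without a counterpart were mostly weak, with exceptions. The median score was 109.78 for unshared and 334.59 for shared replicate 1 peaks, and 86.87 and 817.29 in replicate 2. The strongest unshared replicate 1 peak was X 4025945 to 4029270, 3326 bp wide with a score of 2569.14, and it spanned 2 whole-series peaks. After it came X 3007142 to 3008109 (438.63) and X 1945440 to 1946268 (438.09), the last within the fullest 500-kb window. The strongest unshared replicate 2 peaks were X 4222183 to 4223602 (970.39), X 142757 to 143925 (558.04) and X 3127298 to 3128372 (514.75). Each of these 6 peaks overlapped the whole-series list.

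Replicate peaks absent from the whole-series list were weaker still. In replicate 1 the 3 strongest were X 3129256 to 3130009 (91.5), X 1195220 to 1195568 (76.39) and X 53935 to 54245 (55.47). In replicate 2 they were X 3472041 to 3473149 (91.81), X 2705436 to 2706510 (86.87) and X 443088 to 444035 (80.1). None of these 6 overlapped a peak of the other replicate.

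Members were about as wide as peaks elsewhere. Their median width was 274 bp (binomial interval 250 to 292), with quartiles of 188.5 and 409.5 bp, against 282 bp on the rest of X (270 to 296) and 270 bp on the autosomes (263 to 275). In replicate 1 the left part had the wider median, 540 bp against 503.5 bp on the rest of X, and in replicate 2 the narrower one, 856 bp against 885 bp. The direction of this difference thus changed between replicates. All 90 shared replicate 2 peaks were wider than their replicate 1 partners, by a median ratio of 1.97, and the same held for all 1319 such pairs of the genome.

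Wider members had higher scores, except among the broadest. Spearman's rho between width and score was 0.73 over the 292 members, 0.73 over the 650 peaks of the rest of X and 0.70 over the 3261 of the autosomes, given as a description across peaks of 1 list. Members in both replicates had a median width of 451 bp, those only in replicate 2 262 bp, and those in neither 181.5 bp. Only 9 members (3.08%, 1.42 to 5.77) were over 1 kb wide, beside 3.47% over all peaks, and 2 over 3 kb, beside 0.642%.

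The 5 widest members stood above the middle of the whole-series list, at percentiles 64.8 to 79.6, but not at its top. With 1 exception, they had high scores in at least 1 replicate. The widest, X 289817 to 295309, covered 5493 bp with a whole-series score at percentile 76.2, and stood at percentile 94.8 of replicate 1 and 74.0 of replicate 2. X 109457 to 114307 covered 4851 bp at percentile 79.6, with the score 3100 in both replicates. X 1752184 to 1755127 covered 2944 bp at percentile 75.8, with scores of 3100 and 2423.09 in replicates 1 and 2. X 4026731 to 4029225, of 2495 bp and percentile 65.3, lay under the unshared replicate 1 peak of score 2569.14. The exception was X 1636101 to 1638568, of 2468 bp and percentile 64.8, with scores of 260.4 and 306.98. Of these 5 peaks, 4 lay in the first 2 Mb of the chromosome.

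**Figure D4:**
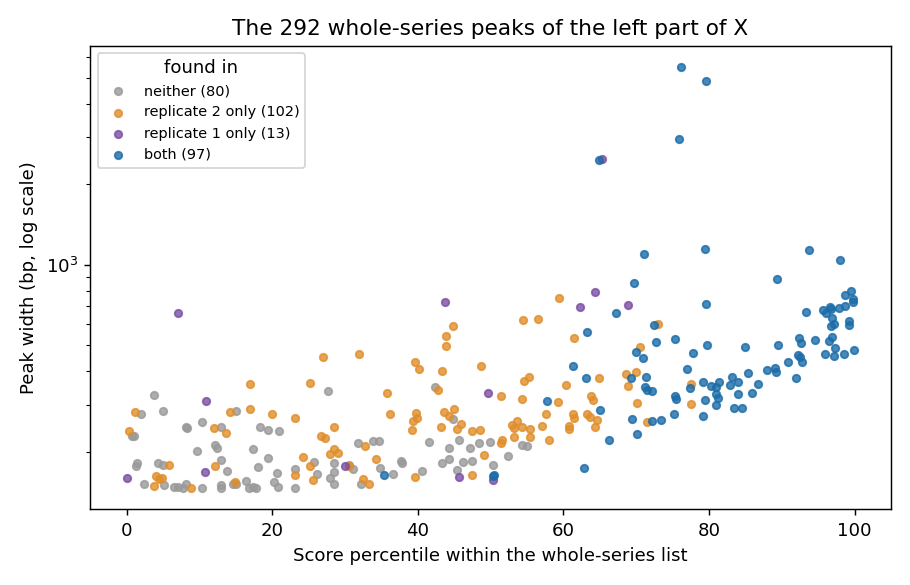
Width in bp on a log scale against score percentile within the whole-series list for each of the 292 members, coloured by the replicates in which a peak was found. Members in neither replicate (80) lie at narrow widths and low percentiles, members in both (97) at higher percentiles, and the widest members sit at percentiles of 64.8 to 79.6.

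The 13 members found only in replicate 1 often lay under a broad peak. The strongest replicate 1 peak over them was more than 1 kb wide for 7 of the 13, with a median of 1503 bp, against 7 of 97 and 540 bp for members in both replicates. Several of the 13 shared a replicate 1 peak, so they are not separate observations. The 7 all lay under X 3076141 to 3077673, X 4025945 to 4029270 or X 4029311 to 4030813. The share was 74 of 219 over all nuclear peaks (33.8%), 61 of 183 on the autosomes and 6 of 23 on the rest of X. On the rest of X it was uneven, with 0 of 15 in the middle part and 6 of 8 in the right part.

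In the whole-series list, spacing in the left part resembled that of the middle of X and of the autosomes more than that of the right part. The median distance between a member and its nearest whole-series neighbour, centre to centre, was 5350 bp (4490 to 6364). It was 5203 bp in the middle part of X, 3011 bp in the right part (2334 to 3773) and 5091 bp on the autosomes (4605 to 5396). Thus the left part had a higher density than the autosomes at a similar median spacing. Of the members, 46 (15.8%, 11.8 to 20.4) had a neighbour within 1 kb, beside 17.2% over all peaks, 21.7% on the rest of X and 16.5% on the autosomes. Within 2 kb the count was 82 (28.1%, 23.0 to 33.6), beside 32.8% over all peaks and 36.6% on the rest of X.

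**Figure D5:**
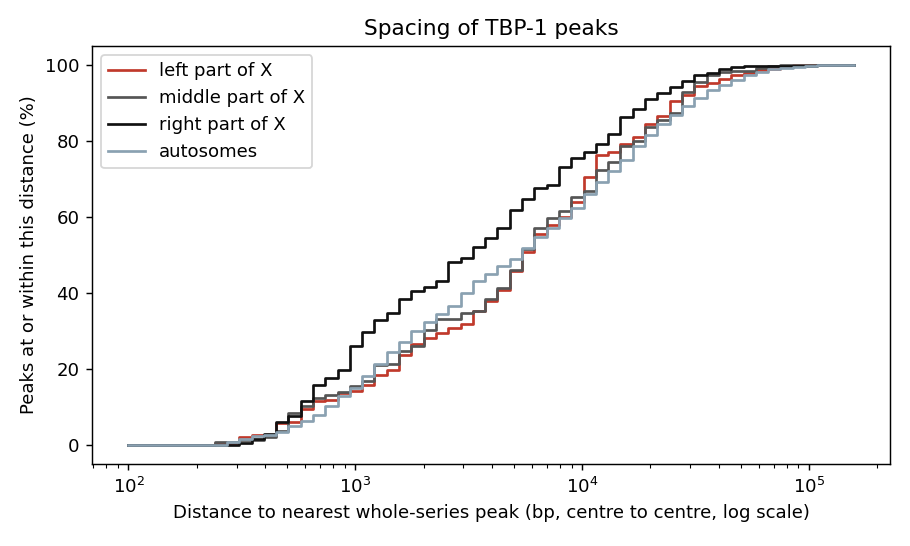
Cumulative share of whole-series peaks by distance to the nearest other peak, centre to centre in bp on a log scale, for the 3 parts of X and the autosomes. The curve of the left part runs near those of the middle part and the autosomes, with medians of 5350, 5203 and 5091 bp, and the right part lies to the left with 3011 bp.

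The replicates did not share 1 pattern of spacing. In replicate 1 the median nearest distance was 10419 bp in the left part (5749 to 23418), against 5113 bp on the rest of X (3545 to 7986) and 9813 bp on the autosomes. In replicate 2 it was 8777 bp (6484 to 10359), against 7209 bp (5984 to 8226) and 10059 bp. Both replicates had a wider median spacing in the left part than on the rest of X, and the intervals overlapped in each. The share with a neighbour within 1 kb was lower in the left part than on the rest of X in replicate 1, at 10.1% against 21.6%. In replicate 2 it was higher, at 4.10% (1.79 to 7.92) against 2.78% (1.44 to 4.80). Relative to the autosomes, the median spacing of the left part was wider in replicate 1 and closer in replicate 2. In the middle and right parts of X the medians were 4393 bp (2376 to 10658) and 5840.5 bp (3473 to 7986) in replicate 1. In replicate 2 they were 10007 bp (6349.5 to 11018.5) and 6153 bp (4872.5 to 7651). The left part was thus nearer to the middle part than to the right part in replicate 2 but not in replicate 1.

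The 46 close members formed 20 runs of neighbours within 1 kb, of which 5 had 3 or more members. The longest, of 4, spanned X 4960273 to 4962609 with whole-series scores from 8.79 to 181.87. Its members all lay under a single replicate 2 peak, X 4960052 to 4963072, with a score of 2412.44, and 1 of the 4 was also in replicate 1. In the fullest 500-kb window, X 1589666 to 1590673 and X 1642507 to 1644725 held 3 members each, all 6 found in both replicates. The first run had scores from 11.91 to 92.54 and the second from 11.92 to 30.29. The run X 3076298 to 3077689 was the weakest, with scores from 3.49 to 4.0 and no member in both replicates.

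The boundary fell in a stretch with few peaks. The last members were X 5818122 to 5818617 (score 9.79) and X 5840966 to 5841361 (27.94). The first peaks outside were X 5907368 to 5907541 (8.32) and X 5912846 to 5913253 (25.55). At the other end, the first member began at base 1 of X, X 1 to 340, with a whole-series score of 30.67, and was found in both replicates with scores of 499.74 and 268.29.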

How the data were processed

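Peak lists of 2 TBP-1 ChIP replicates and of the whole series were used. The deposited lists hold positions and 1 score for each peak, with no scale stated. Per the file headers positions are on WormBase WS220, and the lists name MACS (replicates) and MACS v2 (whole series). Per the submitters' processing notes, BWA and ce10 were used. The sources used here do not give the caller settings, the control or how the whole-series list was made. Depth and caller settings affect the number and width of peaks.

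Peaks were placed by their centre. Each chromosome was taken to end where the last peak of the 3 lists ends, and the 11 mitochondrial whole-series peaks and 1 of replicate 1 were left out. Overlap meant at least 1 bp. Intervals are 95%, Clopper-Pearson for shares, exact Poisson for densities and binomial order statistics for medians. Peaks are not replicates, so no test over peaks was made. Named peaks followed a fixed rule: the 12 strongest members in both replicates, the 5 strongest in neither, the 5 widest, the 3 longest empty stretches, the 3 fullest windows, the 3 strongest unmatched peaks of each replicate and those beside the boundary. The members and comparisons were chosen with earlier results of these data known. The strong subset, single 500-kb windows, the sparse stretch and runs of neighbours were described after their values were seen. Functions were checked on simulated lists with known overlaps. Python 3.11.15, numpy 2.4.6, pandas 2.3.3, scipy 1.17.1 and matplotlib 3.10.9 were used.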

Additional observations from a re-analysis of the deposited data

How the results depend on the processing

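Over all 79 values recomputed under alternative settings, the sign of the difference from the rest of X stayed as reported. For the share of X peaks in its left part, the difference was taken from the length share. Of these values, 62 stayed within the interval or SD of the reported one. The 79 values are not independent, since the settings largely reuse the same peaks. With a single replicate, the shares found and unfound are complements, so the sign of one fixes that of the other. The settings did not include single replicates for width, the strongest 10% or neighbours within 1 kb. In replicate 1 width and the strongest 10% went the other way, with 540 against 503.5 bp on the rest of X, and 17.4% against 14.2%. In replicate 2 the share with a neighbour within 1 kb went the other way, with 4.10% (8 of 195) against 2.78% (12 of 432). The share of X peaks in its left part moved to 34.1% (whole-series list) and 32.9% (replicate mean) with the boundary at 6400000, where the length share was 36.1%, and the replicate mean to 27.1% with it at 5400000. Without the 1.5 to 2.0 Mb window these shares were 27.7% and 25.9%, and the density ratio to the autosomes turned below 1 in replicate 1 (0.96). Leaving out 1 replicate gave a mean share of 28.9% to 31.1%. With centres within 200 bp, members in both replicates were 26.7% and members in neither 33.6%, the latter 46.6% with equally long replicate lists. With a single replicate, found members were 37.7% to 68.2% and unfound ones 31.8% to 62.3%. With the stronger 50% of each list, 15.6% were in its strongest 10%, the median width was 378 bp, the median nearest distance 10448.5 bp and 11.6% had a neighbour within 1 kb. Merging peaks closer than 500 bp gave 6517.5 bp and 2.25%, and a reach of 2 kb gave 28.1%. Each of these settings changes the region, the peaks counted or the rule of counting by construction, and no further cause of the shifts was tested. No paired analysis was possible because input values, with which the ChIP samples share numbers, were not used here. Unknown depth limits what a missing weak peak shows.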

Other observations

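Some replicate 2 peaks spanned more than 1 whole-series peak. In the left part of X these were 11 of 195 (5.64%, 95% Clopper-Pearson interval 2.85 to 9.87), beside 216 of 2660 over the genome (8.12%), a value inside that interval. The shares were 8.38% in the middle part of X, 13.3% in the right part and 7.72% on the autosomes. In replicate 1 the order differed, with 4 of 109 in the left part (3.67%), 2.99% on the rest of X and 3.03% over the genome. No test was made of these shares.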
